A study of Mus musculus with 6 samples.

Results

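YAP (encoded by Yap1) and TAZ (encoded by Wwtr1) are transcriptional coactivators, and 10 genes of their pathway were followed here through mouse embryonic fibroblasts exposed to arsenite. The 10 comprise the coactivators Yap1 and Wwtr1, their DNA-binding partner Tead1, the kinases Lats1 and Lats2, the angiomotin-like genes Amotl1 and Amotl2, and the target genes Ccn1, Ccn2 and Ankrd1. They were taken by symbol, and all 10 were found among the 37224 gene IDs of the deposited table. The older names of Ccn1 and Ccn2 are Cyr61 and Ctgf. RNA-seq was available for 4 groups of primary fibroblasts with a C57BL/6 background, each of 1 library: Dot1L-/- cells with low-dose sodium arsenite, untreated Dot1L-/- cells, wild-type (WT) cells with low-dose sodium arsenite, and untreated WT cells. The exposure lasted 24 h. Concentrations of 5 and 10 µM are both named for the treatment, and which of them was sequenced is not stated. Dot1L methylates histone H3 at lysine 79, and cells labelled Dot1L-/- are called Dot1L null here. The number of embryos or clones behind each culture is not given in the sources used here. With 1 library per group no difference below has a replicate check, and none was tested.

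In the Hippo pathway, the kinases LATS1 and LATS2 phosphorylate YAP and TAZ, which keeps them in the cytoplasm or marks them for degradation. When the kinases are inactive, as in spread cells on a stiff matrix, YAP and TAZ enter the nucleus and bind TEAD proteins, which carry them to DNA. Ccn1 and Ccn2, which encode secreted matrix proteins, and Ankrd1, which encodes an ankyrin-repeat protein of the nucleus and the sarcomere, are widely used readouts of that activity. Lats2 and Amotl2 are themselves YAP and TAZ targets and act as negative feedback. Control of YAP and TAZ runs largely through phosphorylation and location, neither of which RNA-seq measures.

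Expression is given as RPKM, that is, reads divided by gene length and by the library's read total. Levels of different genes are set side by side on that scale. Arsenite folds still followed gene length, as described below, so the order of genes of unlike length may carry a length effect. The read totals behind the RPKM values were 11879632 in Dot1L null cells with arsenite, 64699847 in Dot1L null controls, 10833103 in WT cells with arsenite and 62972880 in WT controls. The controls were thus 5.45 times deeper than the arsenite library in Dot1L null cells and 5.81 times deeper in WT cells. Dot1l itself had an RPKM of 1.24 in Dot1L null cells with arsenite and 5.71 in WT cells with arsenite. Without arsenite it had 9.59 in Dot1L null cells and 30.4 in WT cells, so it was lower in the null libraries but not absent. Of 11 fibroblast markers, 8 reached an RPKM of 1 in at least 1 library, led by Vim. Thy1 was listed at 0 in all 4 libraries, and Lum and Fap did not exceed 0.0459 in any. Among markers of other cell types, 1 of 8 endothelial, 1 of 8 epithelial, 2 of 9 striated and heart muscle and 3 of 8 macrophage and leukocyte genes reached an RPKM of 1.

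The targets were the most abundant members in untreated WT cells. Ccn1 stood first at an RPKM of 336, place 104 among the 12588 genes that reached an RPKM of 1 in some library. Ccn2 followed at 180, Ankrd1 at 172, Amotl2 at 94.8 and Wwtr1 at 54.3. Amotl1 had 19.4, Yap1 18.2, Lats2 14.7, Lats1 10.9 and Tead1 10.7, the last 2 of which did not differ beyond counting error (ratio 1.02, 95% interval 0.981 to 1.05). The order differed in the other libraries. Ankrd1 led in Dot1L null cells with arsenite (123) and without (129), and Ccn1 led in WT cells with arsenite (202). The kinases and Tead1 filled the last 3 places in all 4 libraries. Intervals throughout are exact and cover counting error only, since reads without molecular identifiers are not independent molecules.

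**Figure D1:**
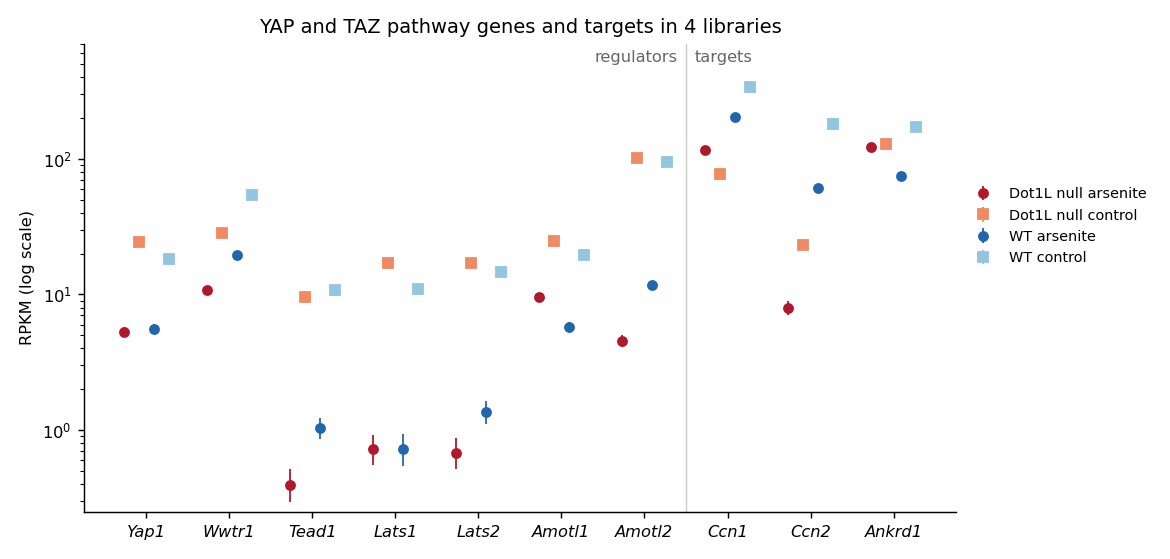
RPKM (log axis) of the 10 members in the 4 libraries, with 95% counting intervals, which are mostly smaller than the symbols. For the 7 regulators left of the line the arsenite libraries (circles) lie below both controls (squares), whereas for Ccn1 and Ccn2 arsenite and control libraries interleave.

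Arsenite was first set against control within each genotype. All 7 regulators were at least 2-fold lower with arsenite in both genotypes, as was the target Ccn2. In Dot1L null cells Ccn1 was higher with arsenite and Ankrd1 nearly level. A gene was called at a 2-fold difference of RPKM + 1. By that rule 8 of 10 members were lower in Dot1L null cells, where 37.1% of all genes were, and 9 of 10 in WT cells, where 35.7% of all genes were. No member was past 2-fold higher, a call made for 15.2% of all genes in Dot1L null cells and 12.8% in WT cells. The median log2 fold of the members was −1.72 in Dot1L null cells and −1.58 in WT cells, beside −0.53 and −0.56 over all genes. Relative to the median of all genes, 5 of 10 members were 2-fold lower in Dot1L null cells (23.8% of all genes) and Ccn1 was higher (23.4%). With 75th percentile scaling the counts were again 5 (26.4%) and 1 (23.0%). In WT cells 6 members were lower relative to the median and 7 with 75th percentile scaling, with none higher. The shares of all genes were not computed for WT cells under these settings. The 4 comparisons share libraries, each library entering 2 of them. Fewer cells that express a gene and less RNA per cell cannot be told apart in these bulk libraries.

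Both coactivators were lower with arsenite in both genotypes. Yap1 (chromosome 9, 7931999 to 8004638 in GRCm38) had an RPKM of 5.28 in Dot1L null cells with arsenite and 24.3 in their control, 4.60-fold lower (4.24 to 5.01). In WT cells it had 5.60 with arsenite and 18.2 in the control, 3.25-fold lower (2.98 to 3.54). The arsenite libraries of the genotypes thus lay close together, and below both controls. Wwtr1 (chromosome 3, 57455644 to 57575910), which encodes TAZ, had 10.7 and 28.6 in Dot1L null cells, 2.67-fold lower with arsenite (2.46 to 2.90). It had 19.4 and 54.3 in WT cells, 2.80-fold lower (2.62 to 2.98). For Wwtr1 the libraries split by genotype as well as by arsenite, with the null library below the WT library at each exposure.

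Tead1 (chromosome 7, 112679356 to 112906784), a DNA-binding protein that YAP and TAZ need because they bind no DNA themselves, was near the lower end of detection with arsenite. It had an RPKM of 0.397 (53 reads) in Dot1L null cells with arsenite and 9.65 (7014 reads) in their control, 24.3-fold lower (18.6 to 32.5). The WT libraries gave 1.04 (126 reads) with arsenite and 10.7 (7602 reads) in the control, 10.4-fold lower (8.70 to 12.5). Both controls were close to each other, and both arsenite libraries lay far below them.

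The kinases that restrain YAP and TAZ were lower by more than the coactivators themselves. Lats1 (chromosome 10, 7681200 to 7716461) had an RPKM of 0.726 (63 reads) in Dot1L null cells with arsenite and 17.0 in their control, 23.4-fold lower (18.3 to 30.5). In WT cells it had 0.721 (57 reads) with arsenite and 10.9 in the control, 15.2-fold lower (11.7 to 20.0). Lats2 (chromosome 14, 57689662 to 57746212) had 0.680 (59 reads) and 17.2 in Dot1L null cells, 25.3-fold lower with arsenite (19.6 to 33.2). It had 1.37 (108 reads) and 14.7 in WT cells, 10.8-fold lower (8.93 to 13.2). For both kinases the arsenite libraries lay at an RPKM of 1.37 or less and the controls at 10.9 or more.

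The angiomotin-like proteins bind YAP and TAZ in the cytoplasm and hold them there. Amotl2 (chromosome 9, 102717091 to 102733418) had an RPKM of 4.55 in Dot1L null cells with arsenite and 101 in their control, 22.1-fold lower (19.9 to 24.7). The WT values were 11.6 with arsenite and 94.8 in the control, 8.14-fold lower (7.59 to 8.75). On the scale of log2(RPKM + 1) these were the lowest folds among the members in each genotype, −4.19 in Dot1L null cells and −2.92 in WT cells, and 0.389% and 1.67% of all genes lay lower. That place depends on the pseudocount: by their reads Tead1, Lats1 and Lats2 had larger folds than Amotl2 in both genotypes. Their intervals overlap its own in Dot1L null cells, and that of Tead1 does so in WT cells too. With a pseudocount of 0.1, Lats2 (−4.47) lay below Amotl2 (−4.44) in Dot1L null cells, and Tead1 (−3.26), Lats1 (−3.75) and Lats2 (−3.34) below Amotl2 (−3.01) in WT cells. The paralog Amotl1 (chromosome 9, 14541966 to 14662974) differed far less. It had 9.50 and 24.6 in Dot1L null cells, 2.58-fold lower with arsenite (2.43 to 2.75), and 5.78 and 19.4 in WT cells, 3.36-fold lower (3.10 to 3.65).

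**Figure D2:**
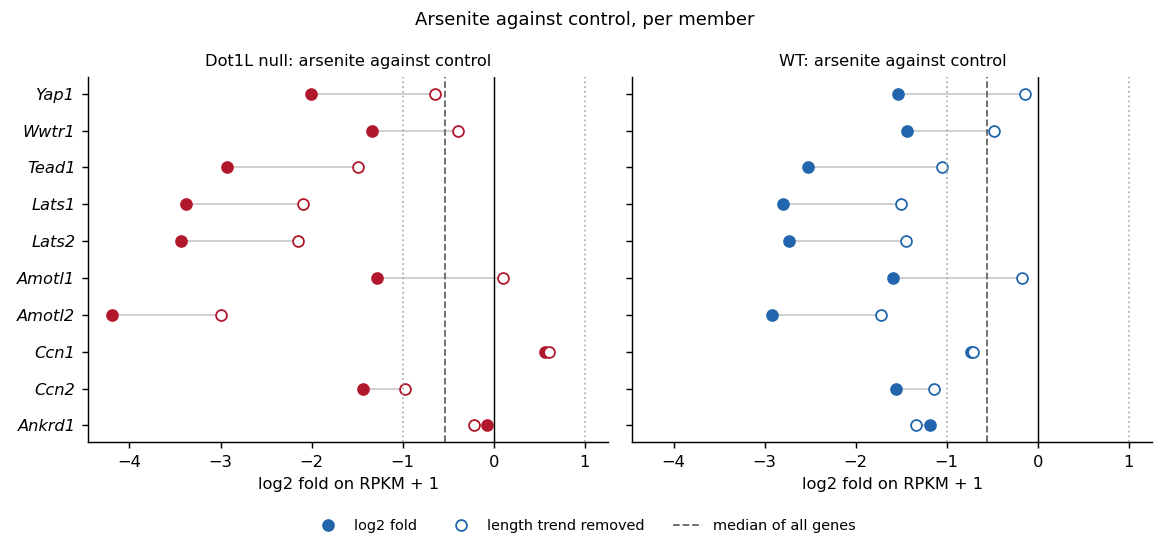
Log2 fold (RPKM + 1) of arsenite against control per member, in Dot1L null cells on the left and WT cells on the right, filled as measured and open with the length trend removed; the dashed line is the median of all genes and dotted lines mark 2-fold. Lats1, Lats2, Amotl2 and Tead1 stay past 2-fold on both measures in both panels, and Ccn1 lies right of 0 in Dot1L null cells at 0.56.

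The targets differed in direction. Ccn1 (chromosome 3, 145646971 to 145649985), which encodes a secreted integrin-binding protein, had an RPKM of 115 in Dot1L null cells with arsenite and 77.7 in their control, 1.48-fold higher (1.42 to 1.54). In WT cells it had 202 with arsenite and 336 in the control, 1.66-fold lower (1.61 to 1.72). Neither passed 2-fold as measured, and the intervals lie on opposite sides of 1. Relative to the all-gene median the log2 fold of Ccn1 was 1.09 in Dot1L null cells and −0.17 in WT cells. After 75th percentile scaling it was 1.18 and −0.23, so the WT fold lay near that of all genes. Ankrd1 (chromosome 19, 36111965 to 36119844) had 123 with arsenite and 129 in the control of Dot1L null cells, a ratio of 0.949 (0.910 to 0.989) whose log2 fold of −0.08 became 0.46 relative to the all-gene median and 0.55 after 75th percentile scaling. The WT values were 75.2 with arsenite and 172 in the control, 2.29-fold lower (2.17 to 2.41). Ccn2 (chromosome 10, 24595442 to 24598683), the connective tissue growth factor gene, was lower in both genotypes, with 7.91 and 23.0 in Dot1L null cells (2.91-fold, 2.57 to 3.31) and 60.4 and 180 in WT cells (2.98-fold, 2.85 to 3.13). The arsenite difference of Ccn2 was thus close in size between the genotypes, at levels that differed between them.

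Ankrd1 is also a gene of striated muscle, so the muscle markers were read beside it. Their summed RPKM was 6.14 in Dot1L null cells with arsenite, 1.83 in Dot1L null controls, 54.2 in WT cells with arsenite and 14.6 in WT controls, of which Tnnt2 made most. Des, which also reached an RPKM of 1, had 1.68 with arsenite and 0.358 in the control of Dot1L null cells. In WT cells it had 1.45 and 0.254. Myl7 had 0.782 with arsenite and 0.0807 in the control of WT cells, and 0 in the Dot1L null libraries. Myod1 was listed at 0 in all 4 libraries, Myh6, Nppa, Myog and Ckm did not exceed 0.0179, and Myh7 did not exceed 0.0425. The muscle sum was higher with arsenite in both genotypes, while Ankrd1 was lower in WT cells and nearly level in Dot1L null cells. Which cells the Ankrd1 RNA came from was not tested.

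Promoter windows are shown for Ccn1, Ankrd1 and Amotl2 because these TEAD-regulated genes held the 2 highest folds and, on the scale of log2(RPKM + 1), the lowest fold with arsenite among the members in Dot1L null cells. They run from 250 bases before to 50 bases after a RefSeq transcription start in GRCm38.p6, on the gene's own strand. The windows are chr3:145649936-145650235 (minus strand) for Ccn1, chr19:36119795-36120094 (minus) for Ankrd1 and chr9:102717554-102717853 (plus) for Amotl2. Capitals mark the core word of a TEAD site, GGAATG, or its reverse complement CATTCC.
Ccn1: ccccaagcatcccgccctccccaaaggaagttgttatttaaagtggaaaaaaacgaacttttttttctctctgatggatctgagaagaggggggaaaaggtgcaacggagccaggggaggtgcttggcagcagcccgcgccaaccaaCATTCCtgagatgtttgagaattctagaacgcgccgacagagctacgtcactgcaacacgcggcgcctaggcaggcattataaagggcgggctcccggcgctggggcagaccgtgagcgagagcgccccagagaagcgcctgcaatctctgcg
Ankrd1: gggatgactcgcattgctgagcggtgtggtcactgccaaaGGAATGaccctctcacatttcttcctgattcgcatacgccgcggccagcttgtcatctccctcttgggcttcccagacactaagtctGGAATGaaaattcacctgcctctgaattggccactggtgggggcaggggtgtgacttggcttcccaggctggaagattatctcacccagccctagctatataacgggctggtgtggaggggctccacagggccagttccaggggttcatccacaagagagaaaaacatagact
Amotl2: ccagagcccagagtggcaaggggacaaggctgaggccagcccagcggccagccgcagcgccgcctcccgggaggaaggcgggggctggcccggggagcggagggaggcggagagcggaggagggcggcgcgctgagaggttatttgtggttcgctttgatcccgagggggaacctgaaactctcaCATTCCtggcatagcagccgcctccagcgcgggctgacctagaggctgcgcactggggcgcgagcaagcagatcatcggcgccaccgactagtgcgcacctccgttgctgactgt

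The word lies 103 to 98 bases before the start of Ccn1, 65 to 60 before that of Amotl2, and at both 210 to 205 and 123 to 118 bases before that of Ankrd1. RefSeq windows were at hand for 8 of the members, not for Tead1 and Ccn2, and 6 of the 8 held the word on either strand: these 3, Yap1, Wwtr1 and Lats2. Over all 32851 windows of the same length 14.7% held it, and 1.36% held it more than once as that of Ankrd1 does. The windows of Lats1 and Amotl1 lacked it, as did the second of 2 windows of Lats2. A member was counted if any of its windows held the word, whereas the shares of all windows are per window. The antioxidant response element word TGACNNNGC, searched on both strands, was found in Ccn1 and Ankrd1 and in 12.4% of all windows, without overlap with a TEAD word. The AP-1 word TGANTCA (7.81% of all windows) and the CArG box of serum response factor (1.63%) were in none of the 8. A word in a window shows a match of letters only.

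Arsenite folds followed gene length across the whole table, which bears on these genes because the regulators are long. Recovered lengths ran from 4779 to 11235 bases for the 7 regulators and from 1765 to 2861 bases for the 3 targets. Over all genes the median log2 fold was 1.14 in Dot1L null cells and 1.01 in WT cells for lengths of 500 to under 1000 bases, and −1.36 and −1.45 for lengths of 8000 to under 12000. After this trend was removed, 4 of 10 members were still 2-fold lower in Dot1L null cells (21.0% of all genes) and 6 of 10 in WT cells (15.4%), with none higher (20.0% of all genes in Dot1L null cells and 15.8% in WT cells). Those lower in both were Tead1, Lats1, Lats2 and Amotl2, to which Ccn2 and Ankrd1 were added in WT cells. Their log2 folds without the trend were −1.49, −2.09, −2.15 and −3.00 in Dot1L null cells, and −1.05, −1.50, −1.44 and −1.73 in WT cells, in the same order. Yap1, Wwtr1 and Amotl1 then lay within 2-fold of the trend, at −0.65, −0.39 and 0.10 in Dot1L null cells and −0.14, −0.48 and −0.17 in WT cells. Of the shorter target genes, Ccn1 then lay at 0.60 in Dot1L null cells and −0.71 in WT cells, and Ankrd1 at −0.21 and −1.34. Ccn2 lay at −0.98 in Dot1L null cells, where it lost its 2-fold call, and at −1.14 in WT cells. What produced the length trend was not tested.

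**Figure D3:**
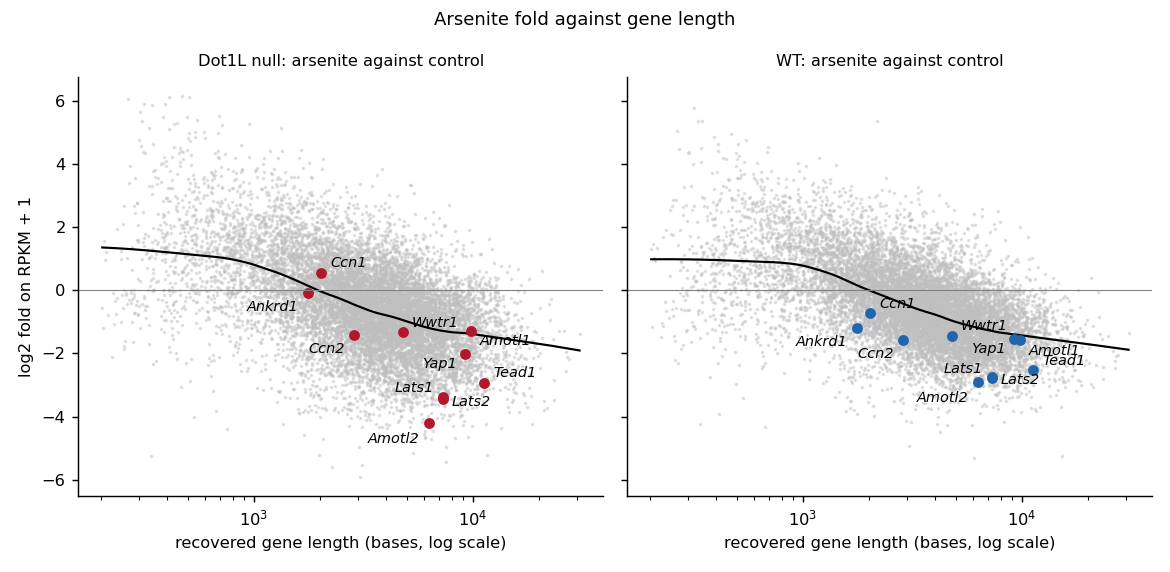
Log2 fold (RPKM + 1) of arsenite against control by recovered gene length (log axis) for 12155 genes of at least 200 bases (grey), in Dot1L null cells on the left and WT cells on the right, with the fitted trend (line) and the members (coloured). Amotl2, Lats1 and Lats2 lie well below the line, Yap1, Wwtr1 and Amotl1 near it, and Ccn1 above it in Dot1L null cells at 0.56 and below it in WT cells at −0.73.

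Dot1L null cells were then set against WT cells without arsenite, to describe the genes before exposure. The CCN targets were the members that set the genotypes apart, while the 7 regulators lay within 2-fold. By the 2-fold rule 2 of 10 members were lower in Dot1L null cells, a call made for 14.7% of all genes, and none was higher, against 6.45% of all genes. Ccn2 had an RPKM of 23.0 in Dot1L null cells and 180 in WT cells, 7.83-fold lower (7.58 to 8.08), and 0.715% of all genes had a lower fold. Ccn1 had 77.7 in Dot1L null cells and 336 in WT cells, 4.33-fold lower (4.23 to 4.42). Both stayed past 2-fold with the length trend removed, at −2.71 and −1.91 on the log2 scale, where 10.9% of all genes were called lower and 9.22% higher. The median of all genes was −0.17 in this comparison and −0.28 in that with arsenite. The third target, Ankrd1, had 129 in Dot1L null cells and 172 in WT cells, 1.33-fold lower (1.30 to 1.36). All 3 targets were thus lower in untreated Dot1L null cells, by unequal amounts.

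The coactivators differed in opposite directions between the untreated genotypes, within 2-fold. Wwtr1 had 28.6 in Dot1L null cells and 54.3 in WT cells, 1.90-fold lower (1.85 to 1.95). Yap1 had 24.3 in Dot1L null cells and 18.2 in WT cells, a ratio of 1.34 (1.30 to 1.37). Lats1 had 17.0 in Dot1L null cells and 10.9 in WT cells (ratio 1.56, 1.50 to 1.62). Ratios for the other 4 regulators lay between 0.898 for Tead1 and 1.26 for Amotl1.

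With arsenite, Dot1L null against WT again gave 2 of 10 members lower, where 16.9% of all genes were lower, and none higher, where 8.75% were. Ccn2 had 7.91 in Dot1L null cells and 60.4 in WT cells, 7.64-fold lower (6.72 to 8.71). Amotl2 had 4.55 in Dot1L null cells and 11.6 in WT cells, 2.56-fold lower (2.25 to 2.91). Its log2 fold of −1.19 came within 2-fold without the length trend (−0.87), with a pseudocount of 5 (−0.80), relative to the all-gene median (−0.90) and with 75th percentile scaling (−0.98). Ccn1 was closer between genotypes than without arsenite, with 115 in Dot1L null cells and 202 in WT cells, 1.76-fold lower (1.67 to 1.84). Ankrd1 stood the other way round, with 123 in Dot1L null cells and 75.2 in WT cells, a ratio of 1.63 (1.53 to 1.74). Without the length trend 1 of 10 members, Ccn2, was lower (8.96% of all genes) and 1, Ankrd1, was higher at 1.02 (12.5%). Tead1 was 2.61-fold lower (1.88 to 3.66) and Lats2 2.01-fold lower (1.45 to 2.81) by their reads. At these levels the pseudocount kept them within 2-fold, at −0.54 and −0.49 on the log2 scale. Lats1 did not differ beyond counting error (1.01, 0.693 to 1.47), nor did Yap1 (0.943, 0.838 to 1.06).

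**Figure D4:**
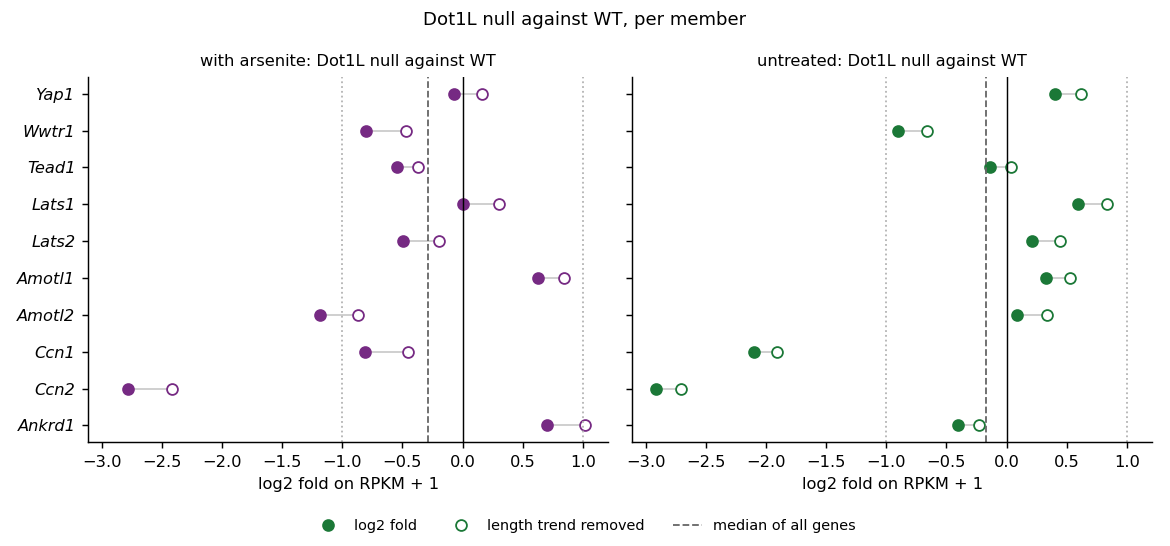
Log2 fold (RPKM + 1) of Dot1L null against WT per member, with arsenite on the left and untreated on the right, filled as measured and open with the length trend removed. Ccn2 lies furthest left in both panels (−2.78 and −2.92), and Ankrd1 lies right of 0 with arsenite at 0.70 and left of 0 without it at −0.41.

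The difference of the arsenite effects (Dot1L null minus WT, on the log2 scale) uses the same 4 libraries and is not separate evidence. It was at least 1 for Ccn1 (1.29) and Ankrd1 (1.11), a size reached by 12.1% of all genes. It was −1 or less for Amotl2 (−1.27), as for 12.8% of all genes. With a pseudocount of 5 Amotl2 lay at −0.88, and with 0.1 Tead1 (−1.04) and Lats2 (−1.13) were also past −1. The remaining members lay between −0.70 for Lats2 and 0.31 for Amotl1, with Ccn2 at 0.13.

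Ratios of paralogs within a library do not depend on scaling between libraries. Their differences with arsenite can still carry the length trend, since paralogs such as Yap1 (9257 bases) and Wwtr1 (4779) differ in length. Without the trend the arsenite folds of Yap1 and Wwtr1 kept their order in Dot1L null cells (−0.65 and −0.39) but not in WT cells (−0.14 and −0.48). The other pairs kept theirs in both genotypes. The ratio of Yap1 to Wwtr1 was 0.493 (0.440 to 0.554) in Dot1L null cells with arsenite, 0.851 (0.829 to 0.874) in Dot1L null controls, 0.289 (0.260 to 0.321) in WT cells with arsenite and 0.336 (0.327 to 0.344) in WT controls. TAZ was thus the more abundant transcript in all 4 libraries, least so in the null control. The ratio of Amotl1 to Amotl2 was 2.09 (1.85 to 2.36) with arsenite and 0.244 (0.240 to 0.249) in the control of Dot1L null cells. In WT cells it was 0.497 (0.447 to 0.553) with arsenite and 0.205 (0.201 to 0.209) in the control. Amotl1 outweighed Amotl2 in the null arsenite library only. The ratio of Ccn1 to Ccn2 was 14.5 (12.8 to 16.5) with arsenite and 3.37 (3.25 to 3.50) in the control of Dot1L null cells, and 3.34 (3.16 to 3.53) and 1.86 (1.84 to 1.89) in WT cells. Lats1 and Lats2 were close to equal in Dot1L null cells, at 1.07 (0.737 to 1.55) with arsenite and 0.991 (0.960 to 1.02) in the control, and Lats1 was the lower in WT cells, at 0.528 (0.376 to 0.734) and 0.741 (0.714 to 0.768).

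The make-up of the TEAD family differed with arsenite. Tead1 held 2.62% of the family's summed RPKM with arsenite and 25.5% in the control of Dot1L null cells, and 3.06% and 17.4% in WT cells. Tead2, whose RPKM with arsenite was 10.8 in Dot1L null cells and 24.4 in WT cells, then held 71.1% and 71.9%. Tead2 had 16.5 in Dot1L null controls and 26.6 in WT controls, so it differed little with arsenite in WT cells. Tead1 (11235 bases) is longer than Tead2 (4668), so these shares carry the length trend. Without it the arsenite log2 fold of Tead1 was −1.49 in Dot1L null cells and −1.05 in WT cells, and that of Tead2 0.35 and 0.82. The sum of all 4 TEAD genes was 15.2 with arsenite and 37.8 in the control of Dot1L null cells, and 33.9 and 61.6 in WT cells. In the CCN family, Ccn5 held 39.7% of the sum in Dot1L null cells with arsenite and 1.79% in WT cells with arsenite. Ccn2 held 3.85% and 22.1% in those libraries.

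**Figure D5:**
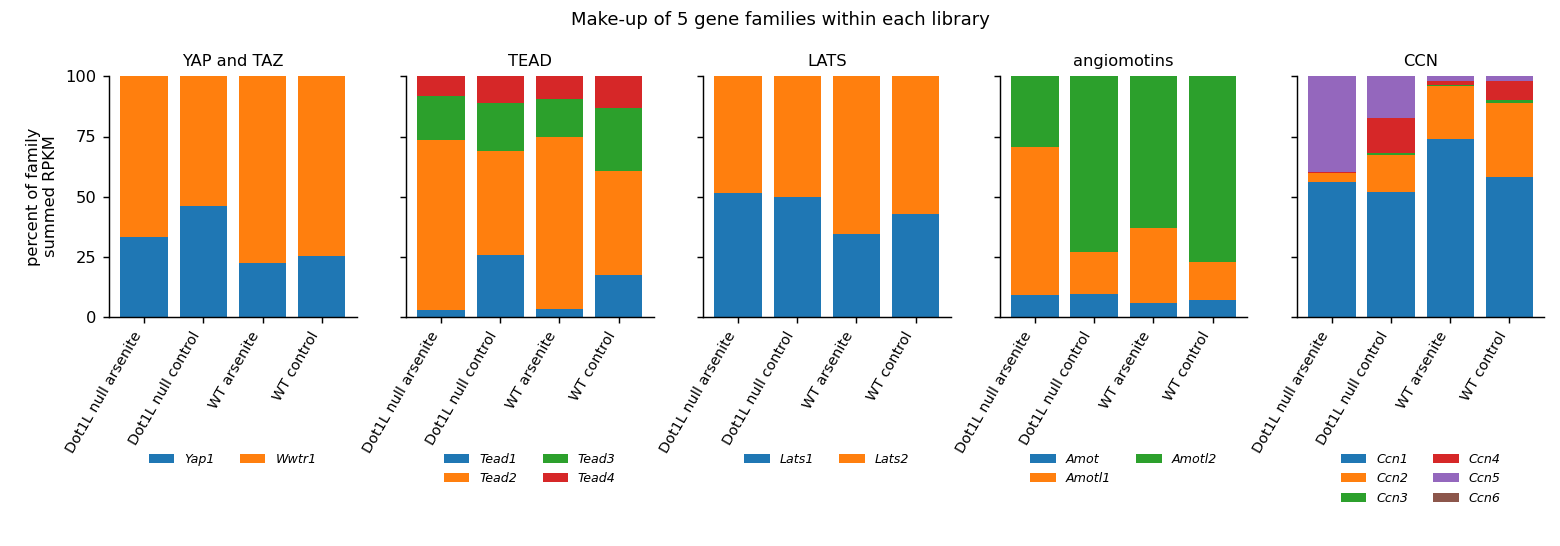
Percent of each family's summed RPKM held by each gene, for 5 families in the 4 libraries. With arsenite the TEAD bars are mostly Tead2 (71.1% and 71.9%) and the angiomotin bar of Dot1L null cells is mostly Amotl1 (61.4%), and Ccn5 is large in the CCN bars of Dot1L null cells.

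A further 45 genes of the pathway, in 5 lists, were read beside the members, and 44 passed the filter at an RPKM of 1. With arsenite 29 were 2-fold lower (37.1% of all genes) and 2 higher (15.2%) in Dot1L null cells, and 37 were lower (35.7%) and none higher (12.8%) in WT cells. Their median was −1.52 in Dot1L null cells and −1.74 in WT cells. Without the length trend the lower genes numbered 19 in Dot1L null cells (21.0% of all genes), with 4 higher (20.0%), and 21 in WT cells (15.4%), with none higher (15.8%). Between untreated genotypes 10 were lower (14.7% of all genes) and 4 higher (6.45%) in Dot1L null cells, which became 4 (10.9%) and 5 (9.22%) without the length trend. Between genotypes with arsenite 9 were lower (16.9%) and 2 higher (8.75%), which became 4 (8.96%) and 3 (12.5%).

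Of 15 upstream kinases and scaffolds, 11 were lower with arsenite in Dot1L null cells (37.1% of all genes) and 13 in WT cells (35.7%). After removal of the length trend 5 were lower in Dot1L null cells (21.0%) and 4 in WT cells (15.4%), and 2 were higher in Dot1L null cells (20.0%), Taok2 at 1.71 and Taok3 at 1.36, both kinases at the top of the cascade. Mob1a, which encodes a cofactor of the LATS kinases, had 4.09 with arsenite and 68.8 in the control of Dot1L null cells, 16.8-fold lower (14.8 to 19.2). Sav1, the scaffold of the kinases above LATS, had 3.77 and 29.8 there, 7.91-fold lower (6.57 to 9.62). Wwc2, a scaffold that promotes LATS activity, was 8.98-fold lower (8.07 to 10.03) and Taok1, a kinase at the top of the cascade, 14.1-fold lower (11.8 to 17.1) in those cells. In WT cells Mob1a was 7.23-fold, Sav1 3.77-fold, Wwc2 7.89-fold and Taok1 5.24-fold lower. Without the length trend Taok1 lay at −1.27 in Dot1L null cells and −0.42 in WT cells. Mob1a, Sav1 and Wwc2 stayed past 2-fold lower in both genotypes. Of the 5 nuclear partners, 4 were lower in each genotype (37.1% of all genes in Dot1L null cells and 35.7% in WT cells), and 2 in each without the length trend (21.0% and 15.4%). Vgll4, a TEAD-binding antagonist of YAP, had 0.611 with arsenite and 9.88 in the control of Dot1L null cells, 16.2-fold lower (11.3 to 24.0). Vgll3, another TEAD-binding cofactor, was 7.34-fold lower there (6.05 to 8.99). In WT cells Vgll4 was 6.79-fold and Vgll3 5.86-fold lower. Tead3 was 3.07-fold lower (2.70 to 3.50) with arsenite in WT cells, and Tead4 3.42-fold lower (2.58 to 4.61) in Dot1L null cells. Without the length trend these came within 2-fold, Tead3 at −0.58 in WT cells and Tead4 at −0.51 in Dot1L null cells.

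Of 4 other cytoplasmic regulators, 3 were lower in Dot1L null cells (37.1% of all genes) and all 4 in WT cells (35.7%), and 3 in each without the length trend (21.0% and 15.4%). Ajuba, a LIM protein that inhibits LATS, had 5.24 with arsenite and 52.4 in the control of Dot1L null cells, 10.0-fold lower (8.75 to 11.5). In WT cells it was 3.44-fold lower. The related LIM genes Limd1 and Wtip were 5.69-fold (4.98 to 6.54) and 2.36-fold (2.03 to 2.75) lower in WT cells, and Amot 8.99-fold lower (7.62 to 10.7) in Dot1L null cells. Limd1 was 4.59-fold and Wtip 1.46-fold lower in Dot1L null cells, and Amot 8.38-fold lower in WT cells. Genes that restrain YAP and TAZ and genes that release them were thus among those lower.

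Of 17 other YAP and TAZ targets, 10 were lower (37.1% of all genes) and 1 higher (15.2%) with arsenite in Dot1L null cells, and 14 lower (35.7%) and none higher (12.8%) in WT cells. Their median was −1.30 in Dot1L null cells and −1.77 in WT cells. Without the length trend 8 were lower in Dot1L null cells (21.0%) and 9 in WT cells (15.4%). Crim1, which encodes a transmembrane protein that binds bone morphogenetic proteins, had 4.34 with arsenite and 66.5 in the control of Dot1L null cells, 15.3-fold lower (13.7 to 17.2). In WT cells it was 5.75-fold lower. Asap1, which encodes a GTPase-activating protein of ARF, was 9.26-fold lower (8.50 to 10.1) with arsenite in WT cells and 7.26-fold lower in Dot1L null cells. Ccdc80, which encodes a secreted matrix protein, went against the list in Dot1L null cells, with 127 and 30.7 there and 7.54 and 12.7 in WT cells. Igfbp3, which encodes a binding protein of insulin-like growth factors, had 0.0494 in untreated Dot1L null cells and 18.5 in untreated WT cells, 375-fold lower (204 to 783).

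Among the other CCN genes, 3 of 4 passed the filter and Ccn6 was listed at 0 throughout. Ccn4 had 0.961 with arsenite and 21.9 in the control of Dot1L null cells, 22.8-fold lower (17.8 to 29.7). In WT cells it had 4.87 with arsenite and 46.2 in the control. Ccn3 had 1.02 in untreated Dot1L null cells and 6.23 in untreated WT cells, 6.12-fold lower (5.24 to 7.17). Ccn5, a family member that lacks the C-terminal domain of the others, had 81.5 in Dot1L null cells with arsenite, 26.1 in their control, 4.89 in WT cells with arsenite and 10.5 in WT controls. It was 16.7-fold higher (13.6 to 20.5) in Dot1L null than in WT cells with arsenite. The Dot1L null cells thus held more Ccn5 and less Ccn1, Ccn2, Ccn3 and Ccn4 RNA than WT cells at each exposure.

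For each target the genes with the most similar profile over the 4 libraries were found by the largest gap between log2(RPKM + 1) values centred on their own mean. For Ccn1 they were Isyna1 (largest gap 0.05), Areg (0.09) and Elfn1 (0.09). For Ankrd1 they were Rufy1 (0.02), Rhbdf1 (0.08) and Pcif1 (0.10). Ccn2 had no such close neighbour, the nearest being Tsnax (0.36), Hspa4l (0.37) and Dusp18 (0.40). With 4 libraries a small gap describes these libraries only.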

How the data were processed

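The authors deposited RPKM values for 4 RNA libraries. Per the labels' protocols the libraries were strand-specific and depleted of ribosomal RNA, although the molecule is labelled polyA RNA. TopHat, HTSeq, Bowtie, deepTools and mm10 are named in the submitters' processing notes without roles. The strand setting of the counting is not given there, so whether reads of overlapping genes were kept apart is not known. The 2 H3K27ac libraries were not analysed here.

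Symbols were found for 35449 of 37224 IDs, and positions are from RefSeq GRCm38.p6. Depth was the most frequent inverse of RPKM times span over small RNA genes, and gene length the shortest giving whole reads in all libraries (relative tolerance 1e-12). That length equalled the span in 348 of 501 small RNA genes and may be a whole fraction of the true one. Folds were log2((RPKM + 1)/(RPKM + 1)) over the 12588 genes reaching an RPKM of 1, called at 2-fold, with no test. Ratios of reads have exact conditional (Clopper-Pearson) 95% intervals. The length trend was a lowess curve (fraction 0.3, lengths of at least 200 bases; statsmodels 0.14.6, scipy 1.17.1, Python 3.11.15), whose removal also centres the folds. The steps were tested on simulated data. The 7 alternatives were pseudocounts of 0.1 and 5, a filter at 5 or none, median centring, 75th percentile scaling and length. Members and lists were chosen with earlier results of these data known. Named were all members, up to 4 genes per pathway list with the largest fold, Dot1l, and the 3 genes most like each target. Tead2, Ccn6, Taok2, Taok3 and single markers were named after their values were seen.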

Additional observations from a re-analysis of the deposited data

Results flagged for a closer look

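Among the 10 members and the 44 pathway genes that passed the filter, arsenite went with opposite directions in the genotypes in 4. Each counting interval lay on its own side of 1, without centring on the all-gene medians (−0.53 in Dot1L null cells, −0.56 in WT cells). The share of all genes meeting this rule was not computed, and the difference was not tested against replicate error. The log2 difference between genotypes (Dot1L null minus WT) was 1.29 for Ccn1, 2.70 for Ccdc80, 2.57 for Ccn5 and 0.94 for Taok2, a kinase upstream of LATS. Without the length trend Taok2 lay at 1.71 in Dot1L null cells and 0.81 in WT cells and Ccdc80 at 2.83 and 0.12, so these 2 then went the same way in both genotypes, whereas Ccn1 and Ccn5 did not. Taok2 had an RPKM of 8.10 with arsenite and 6.14 in the control of Dot1L null cells, and 7.30 with arsenite and 11.5 in the control of WT cells. The controls were 5.45 and 5.81 times deeper than the arsenite libraries in Dot1L null and WT cells, and the part of depth in these directions was not tested.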

How the results depend on the processing

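In WT cells the 9 members lower with arsenite became 6 once centred on the all-gene median, 7 with 75th percentile scaling and 6 with the length trend removed. These counts lie within 1.5 times of 9, and the other alternatives left 9. In Dot1L null cells the 8 lower members became 5, with 1 higher (Ccn1), once centred on the all-gene median and also with 75th percentile scaling, and 4 with the length trend removed. For Dot1L null against WT with arsenite, the 2 lower members became 1 with a pseudocount of 5, with centring, with 75th percentile scaling and with the length trend removed, which also put 1 (Ankrd1) past 2-fold higher. For the difference of the arsenite effects, the 1 member at −1 or less became 3 with a pseudocount of 0.1 and 0 with a pseudocount of 5. Shares of all genes were not computed for these pseudocounts, nor for the genotype counts under alternatives other than length. Of 50 member folds, all kept their direction under both pseudocounts, 47 when centred, 48 with scaling to the 75th percentile (which left all-gene medians of −0.12 with arsenite in Dot1L null cells and −0.17 in WT cells) and 47 with length accounted for. The only 2-fold difference to turn was Amotl1 with arsenite in Dot1L null cells, 0.10 without the length trend; the others that turned were Ankrd1 with arsenite in Dot1L null cells, Tead1 between untreated genotypes and Yap1 between genotypes with arsenite, all within 2-fold. Tead1, Lats1 and Lats2 rest on 53 to 126 reads in the arsenite libraries. No paired analysis was possible because each group held 1 library.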
